A study of Homo sapiens with 24 samples.

Results

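Aminoacyl-tRNA synthetases attach each amino acid to its tRNA, and every protein made in the cytosol or in the mitochondria depends on them. Most amino acids have a cytosolic enzyme and a separate mitochondrial enzyme, both encoded in the nucleus. Several cytosolic enzymes are held together in the multi-synthetase complex by the scaffold proteins AIMP1, AIMP2 and EEF1E1. The mRNAs of these enzymes were described here in HepG2 cells, a hepatoma line, by their levels, their loss after transcription was stopped, and their response to knockdown of the IGF2BP RNA-binding proteins.

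The genes were chosen by symbol alone, as protein-coding genes named for a synthetase, which gave 38 of 58676 gene rows. Of these, 21 were counted as cytosolic and 17, whose symbols end in 2, as mitochondrial. The assignment follows the symbol, although KARS1 and GARS1 encode the lysyl- and glycyl-tRNA synthetases of both compartments. All 38 passed the filter on low counts that left 13136 genes for testing, a minimum of 1 CPM (reads of the gene per 1000000 gene reads of the library) required of 2 or more libraries. The CPM values printed from here on are scaled by TMM, in which the library total is multiplied by a factor that sets the bulk of genes to no difference between libraries.

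Cells received a non-targeting siRNA (siControl) or one that knocked down a single IGF2BP gene (siIGF2BP1, siIGF2BP2 and siIGF2BP3), then 5 μg/ml actinomycin D, which blocks transcription, for 0, 3 or 6 h before harvest. The 24 libraries of polyadenylated RNA form 12 groups, 4 conditions at 3 time points, with 2 replicates each. Transfected plates were divided after 6 h into the dishes of the 3 time points, so time points of a condition share a transfection. The study calls the replicates independent and does not say whether they were separate cultures, so p-values measure the spread between these libraries, which may be technical.

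Libraries held 31843248 to 74252042 gene reads, of which 158305 to 328103 came from the 38 genes. The targeted mRNAs checked the labels: IGF2BP1 had 620.0 and 632 CPM in siControl and 130.3 and 134 in siIGF2BP1 at 0 h, IGF2BP2 had 169 and 176 against 45.5 and 44.7 in its own knockdown, and IGF2BP3 had 102 and 98.9 against 36.0 and 35.1. Hepatocyte markers were present in every library, from ALB at 9611 CPM or more to TTR, the lowest of those read, at 34.7 to 85.9 CPM. PTPRC, CD3E and COL1A2, markers of leukocytes and fibroblasts, never exceeded 1 read. PECAM1, a marker of endothelium, was not absent, at 0.508 to 1.41 CPM and up to 66 reads in a library. Both CPM and its TMM-scaled form are relative to the other RNA of a library, so less RNA per cell and fewer cells cannot be told apart.

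Before the values, the promoters were searched for a pair of words with a known link to this gene family. The word TGATGNAA is the core of the element bound by ATF4 with C/EBP proteins, which induces many cytosolic synthetases when amino acids run short. CACGTG is the E-box bound by MYC and related factors. In RefSeq promoters of GRCh38.p14 (250 bases before to 50 after each start, both strands, any overlap allowed), TGATGNAA was present in 8 of the 30 synthetase genes with an entry (26.7%), against 4.46% of 27305 genes. CACGTG was present in 4 of the 30 (13.3%), against 8.77%. The windows of the 8 genes with TGATGNAA, and of MARS2 for its fast loss described later, are written 5′ to 3′ in the direction of the gene, with the word in capitals on whichever strand it lies.
AARS1, chr16:70289677-70289702, minus strand: ttctcgcagTTGCATCAgccaagtta
CARS1, chr11:3057409-3057434, minus strand: gggcggcggTTGCATCAgattctagg
GARS1, chr7:30594836-30594861, plus strand: acgcggcgaTTTCATCAtgctccgag
IARS1, chr9:92293694-92293719, minus strand: ttcagcgcgTTGCATCAcctccgtgc
MARS1, chr12:57488055-57488080, plus strand: cggttccggTTGCATCAgcgagggat
NARS1, chr18:57621806-57621831, minus strand: tacgctctcTGATGCAAcgccggaat
TARS1, chr5:33440958-33440983, plus strand: gcctttcgaTTGCATCAgctggtcca
YARS2, chr12:32756078-32756103, minus strand: ccacactgcTGATGGAAaaattaagt
MARS2, chr2:197705349-197705374, plus strand: cgcctctcaCACGTGctgtcagaacg

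Of the 8 genes with TGATGNAA, 7 were cytosolic and the other was YARS2, the mitochondrial tyrosyl-tRNA synthetase. The other genes with CACGTG besides MARS2 were CARS2, EARS2 and IARS1. Genes with no entry included AARS2, LARS1, TARS3, VARS1, VARS2 and YARS1. A match describes these letters only, and binding was not measured.

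The level of each mRNA was compared between genes as reads per kilobase of the canonical transcript and 1000000 reads (RPKM), made from TMM-scaled CPM, in siControl at 0 h. Cytosolic synthetase mRNAs had a median of 54.0 RPKM (range 7.22 to 141) and mitochondrial ones a median of 9.32 (range 1.94 to 58.5), against 6.59 over 13094 genes with a length. KARS1 was the most abundant, at 141 and 140.1 RPKM in the 2 replicates. GARS1 followed at 79.5 and 77.1, and QARS1, the glutaminyl-tRNA synthetase, at 74.4 and 76.3. The lower GARS1 replicate was only just above the higher QARS1 replicate.

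The lowest cytosolic mRNAs were CARS1, the cysteinyl-tRNA synthetase, at 15.3 and 14.7 RPKM, FARSB, the beta subunit of the phenylalanyl enzyme, at 13.2 and 13.3, and TARS3, a threonyl-tRNA synthetase paralog, at 7.27 and 7.18. The alpha subunit gene FARSA had 44.1 and 44.2 RPKM. That gap rests on the lengths used, 1811 bases for FARSA and 6761 for FARSB, of which 4972 are annotated 3′ untranslated region. In raw reads FARSB was not the lower, with up to 7943 in a library against up to 6678 for FARSA. The 3′ ends used in these cells were not tested, so unequal levels of both mRNAs cannot be concluded. Among mitochondrial genes, IARS2, the isoleucyl enzyme, stood highest at 58.8 and 58.1, followed by CARS2 at 25.3 and 27.1 and RARS2 at 23.6 and 22.9. FARS2 at 5.10 and 5.43, PARS2 at 2.01 and 2.36, and SARS2 at 2.08 and 1.80 were lowest. The replicates of PARS2 and SARS2 overlap, and SARS2 shares 48.2% of its exon bases with a readthrough gene on the same strand, so its count is uncertain. With the length of all annotated exons merged, the medians became 21.3 and 5.68 RPKM, and GARS1 fell from rank 2 to rank 16 of the 21 cytosolic genes.

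Loss of mRNA was measured as the slope of log2 level on time, scaled to the ERCC spike-in total and given as the log2 change over 6 h of actinomycin D. In siControl, all 38 slopes were below 0 and 32 passed the test, all as falls, where 80.3% of all genes fell and 80.6% were called in either direction (edgeR quasi-likelihood test, Benjamini-Hochberg adjusted over all genes). The members' median was -0.46 against -0.88 over all genes, and 29 of the 38 lay above the all-gene median. The median was -0.39 for cytosolic and -0.81 for mitochondrial mRNAs.

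**Figure D1:**
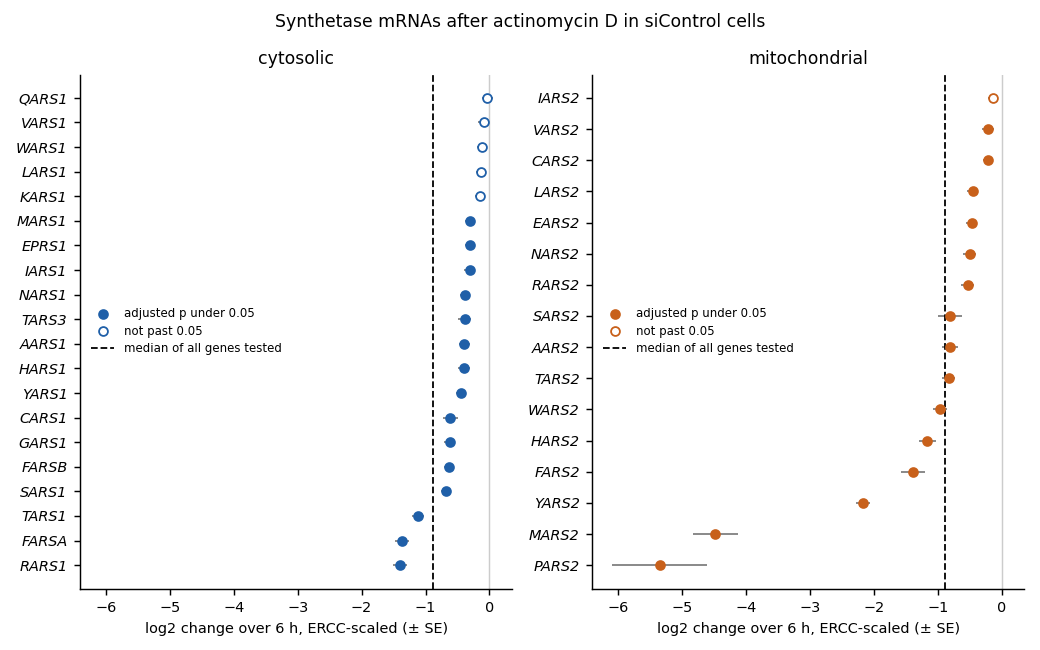
Log2 change over 6 h of actinomycin D in siControl (x axis, ERCC-scaled) for synthetase mRNAs, with the SE from the fit. Filled points passed an adjusted p of 0.05, and most points lie to the right of the dashed line at the median of all genes (-0.88), while MARS2 (-4.48) and PARS2 (-5.35) lie far to the left.

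The slowest cytosolic mRNAs showed no loss that passed the test. QARS1 stood at 110.3% and 111% of its mean 0 h level after 3 h and at 102% and 92.7% after 6 h (slope -0.04, SE 0.0858, adjusted p = 0.702 by edgeR). VARS1, the valyl-tRNA synthetase, stood at 101% and 87.0% after 6 h (slope -0.09, SE 0.0869, adjusted p = 0.330). WARS1, the tryptophanyl enzyme known as an interferon target, stood at 94.9% and 89.2% (slope -0.12, SE 0.0803, adjusted p = 0.176). The 0 h replicates of these mRNAs themselves spanned 92.1% to 107.9% of their mean, and the lower 6 h replicates of VARS1 and WARS1 lay below that span. Without siControl replicate 2 at 0 h the WARS1 slope became -0.24 and passed the test.

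At the fast end of the cytosolic group, RARS1, the arginyl-tRNA synthetase, fell to 38.2% and 37.6% of its 0 h level after 6 h (slope -1.40, SE 0.111, adjusted p = 1.60e-10). FARSA fell to 41.5% and 35.8% (slope -1.37, SE 0.107, adjusted p = 1.25e-10). TARS1 fell to 48.6% and 43.6% (slope -1.12, SE 0.0921, adjusted p = 2.94e-10). At both 3 h and 6 h, each of the 3 lay below all its 0 h replicates.

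Mitochondrial synthetase mRNAs spread further. IARS2 stood at 92.6% and 88.6% after 6 h (slope -0.14, SE 0.0785, adjusted p = 0.101) and was the single mitochondrial mRNA without a call. VARS2 (slope -0.21, SE 0.0936, adjusted p = 0.0426) and CARS2 (slope -0.22, SE 0.0798, adjusted p = 0.0157) fell little, and both calls were lost without siControl replicate 1 at 0 h or replicate 2 at 6 h, where the latter gave slopes of -0.0977 for VARS2 and -0.14 for CARS2. The VARS2 call was also lost without siControl replicate 1 at 6 h. IARS2 passed the test, at -0.25, without siControl replicate 2 at 0 h. YARS2 fell to 51.3% and 51.1% after 3 h and to 22.8% and 21.4% after 6 h (slope -2.17, SE 0.112, adjusted p = 1.30e-13).

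MARS2, the mitochondrial methionyl-tRNA synthetase, and PARS2, the prolyl enzyme, were lost faster than any other member. MARS2 had 1725 and 2274 reads at 0 h, 229 and 301 at 3 h, and 105 and 127 at 6 h, which left 4.07% and 5.16% of the 0 h level (slope -4.48, SE 0.353, adjusted p = 1.33e-10). PARS2 had 304 and 464 reads at 0 h, 17 and 27 at 3 h, and 11 and 19 at 6 h, or 2.25% and 4.08% (slope -5.35, SE 0.743, adjusted p = 9.24e-07). Of the 13136 genes tested, 253 had a lower slope than MARS2 and 97 a lower slope than PARS2. In the knockdowns PARS2 came close to the limit of counting at 6 h, with 2 and 1 reads in siIGF2BP1 and 11 and 0 in siIGF2BP3, where the count of 0 allows up to 3 reads, or 1.12% of the 0 h level.

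**Figure D2:**
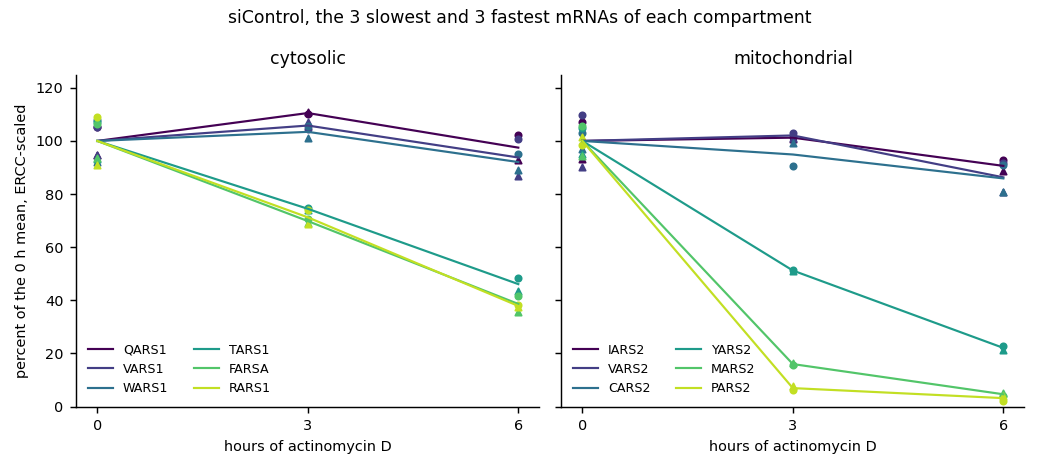
Percent of the mean 0 h level (y axis, ERCC-scaled) at 0, 3 and 6 h in siControl for the 3 slowest and 3 fastest mRNAs of each compartment. Lines join the means of 2 replicates, circles are replicate 1 and triangles replicate 2, and after 6 h RARS1 was near 38% while MARS2 and PARS2 were below 6%.

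As half-lifetime, computed from the ratios to 0 h under first-order decay, the medians in siControl were 17.2 h for the 19 cytosolic mRNAs that had one and 7.42 h for the 17 mitochondrial mRNAs, against 5.90 h over 11903 genes. QARS1 and VARS1 had no half-lifetime because their average rate was not above 0. PARS2 had the shortest, 0.946 h, followed by MARS2 at 1.23 h and YARS2 at 2.92 h. Values far beyond the 6 h course, such as 152 h for KARS1 and 532 h for WARS1, say only that no loss was resolved. In the other conditions MARS2 kept to 1.23 to 1.26 h, the narrowest spread of the 3.

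The direction of the slower slopes depended on the scaling. Under TMM scaling the all-gene median moved from -0.88 to -0.02, and 25 members were called higher and 8 lower, where 36.3% of all genes were called higher and 38.7% lower. On the ERCC scale, taken relative to the all-gene median, the QARS1 slope was 0.85 and the MARS2 slope -3.60. With library-size scaling 17 were called higher and 11 lower, where 21.0% of all genes were called higher and 52.3% lower, at an all-gene median of -0.34. The members' share of gene reads in siControl was 0.442% and 0.441% at 0 h and 0.492% and 0.492% at 6 h.

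Within the cytosolic group, the mRNAs of the multi-synthetase complex were mostly slow. This grouping was made after the values had been seen. The 8 complex members, among them EPRS1, IARS1, LARS1, MARS1, QARS1, KARS1 and RARS1, had a median slope of -0.26, and the other 13 cytosolic mRNAs a median of -0.44. Without RARS1, the 7 others ranged from -0.31 to -0.04. EPRS1, which encodes the joined glutamyl- and prolyl-tRNA synthetase, fell by 0.31 (SE 0.0779, adjusted p = 0.00104) and KARS1 had a slope of -0.15 (SE 0.0796, adjusted p = 0.0917), which became -0.26 and passed without siControl replicate 2 at 0 h. The scaffold mRNAs all fell, AIMP1 by 0.78 (SE 0.0853), EEF1E1 by 1.27 (SE 0.140) and AIMP2 by 1.64 (SE 0.109), so their slopes were below those of 7 of the 8 enzymes.

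Paired genes for the same amino acid also differed. HARS1 and HARS2, histidyl-tRNA synthetases read from opposite strands with 108 shared exon bases, had slopes of -0.40 (SE 0.0946) and -1.16 (SE 0.135). TARS1, TARS2 and TARS3 had slopes of -1.12, -0.83 (SE 0.107) and -0.39 (SE 0.101), and here the cytosolic TARS1 was the fastest. RARS1 at -1.40 lay below RARS2 at -0.53, while MARS1 at -0.30 and YARS1 at -0.44 lay far above MARS2 and YARS2. Differences between genes were not tested. GARS1, a single gene for both compartments, fell by 0.62 (SE 0.0810, adjusted p = 3.47e-07).

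The fastest mRNAs came from genes with few exons. MARS2 has 1 exon, PARS2 has 2 and YARS2 has 5, while the 13 members with at least 20 exons had a median slope of -0.31 and none below -0.81. Across the 38 genes, exon number and slope had Pearson's r = 0.62 and Spearman's rho = 0.56, and without MARS2 and PARS2 r = 0.54 and rho = 0.49 over 36 genes. Over 11385 protein-coding genes the values were r = 0.17 and rho = 0.15. With exons per kilobase of transcript the order turned by rho, which was 0.37 for the members, 0.26 without MARS2 and PARS2, and 0.44 over all protein-coding genes. By r the order held for the 38 members, at 0.61 against 0.41 over all, and turned without MARS2 and PARS2, at 0.34. With the length of the coding sequence, rho was 0.46 for the members and -0.20 over all. These describe genes measured in the same 6 siControl libraries, and genes are not independent replicates. In all protein-coding genes, the 201 with 1 exon had a median slope of -2.52 and the 452 with 2 exons -2.32, so MARS2 and PARS2 lay below the medians of genes of their own exon number. For members with 20 exons or more the median of -0.31 stood against -0.81 over 1774 genes.

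**Figure D3:**
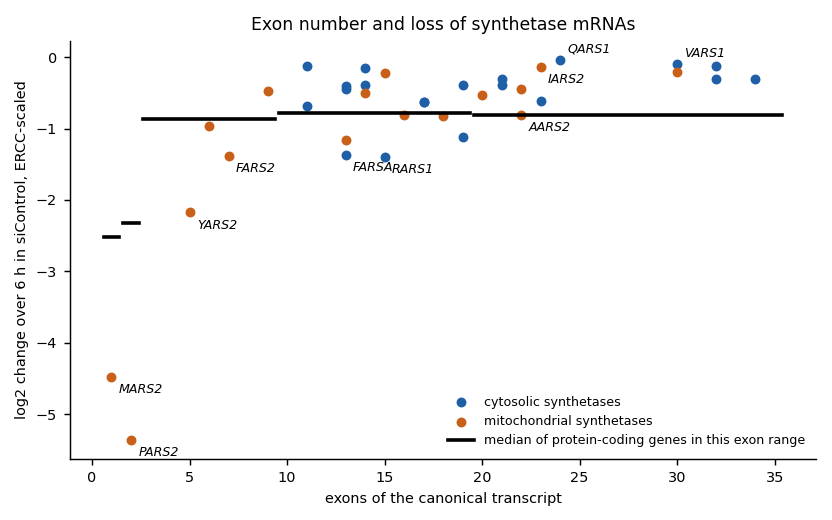
Slope in siControl (y axis, log2 change over 6 h, ERCC-scaled) against the number of exons of the canonical transcript (x axis) for synthetase genes, 1 point each. Black bars are medians of protein-coding genes tested with 1, 2, 3 to 9, 10 to 19 and at least 20 exons, and MARS2 and PARS2 lie below the bars for 1 and 2 exons.

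Sequence of the 3′ untranslated region was read from the canonical transcripts, for words chosen after the slopes were known. ATTTA, the core of AU-rich elements, was found in 18 of 38 members and 72.7% of 11361 transcripts, and TGTANATA, the word of Pumilio proteins, in 4 of 38 and 29.8%. Per kilobase of this region, members held 1.90 ATTTA words against 2.29 in all transcripts. MARS2 held 6 ATTTA and 1 TGTANATA in 1208 bases, PARS2 held 2 ATTTA in 836 bases, and YARS2 held none in 660 bases. The longer word TATTTAT, which contains ATTTA, was found in 4 of 38 members and 35.3% of transcripts, but not in MARS2, PARS2 or YARS2. Of 1580 transcripts with a region of 800 to 1300 bases, which takes in the lengths of MARS2 and PARS2, 76.4% held ATTTA, at 2.15 words per kilobase. In the same transcripts 22.3% held TGTANATA and 24.4% held TATTTAT. Below are 3 of these windows, with the first and last position of the word counted from the stop codon.
MARS2, 528 to 532: gtgtatccccATTTAaattcctaca
MARS2, 971 to 978: taaaaattTGTAAATAgttcaaaag
PARS2, 172 to 176: gattatttgtATTTAaagtcattaa

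QARS1 and RARS1, at opposite ends of the cytosolic slopes, both had short regions, 97 and 111 bases, with none of these words. Of the other slow cytosolic mRNAs named above, VARS1 (76 bases) and WARS1 (1085 bases) also held none. The other fast ones did hold words, FARSA 1 ATTTA within 1 TATTTAT in 269 bases and TARS1 3 ATTTA in 378 bases. A relation of these words to slope was not tested.

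Knockdown effects on level were tested at 0 h on TMM-scaled counts, and the 3 knockdowns share the same 2 control libraries. In siIGF2BP1, 6 of 38 synthetase mRNAs were called, 4 higher and 2 lower, where 15.9% of all genes were called (9.43% higher and 6.5% lower). In siIGF2BP2, 3 of 38 were called, against 12.1% of all genes (6.65% higher and 5.47% lower), and in siIGF2BP3 1 of 38, against 9.39% (4.93% and 4.47%). Shares of 15.8%, 7.89% and 2.63% of members were thus near or below those of all genes. The median difference of members was 0.00, 0.05 and 0.01 on the log2 scale (0.01, 0.02 and 0.00 over all genes).

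**Figure D4:**
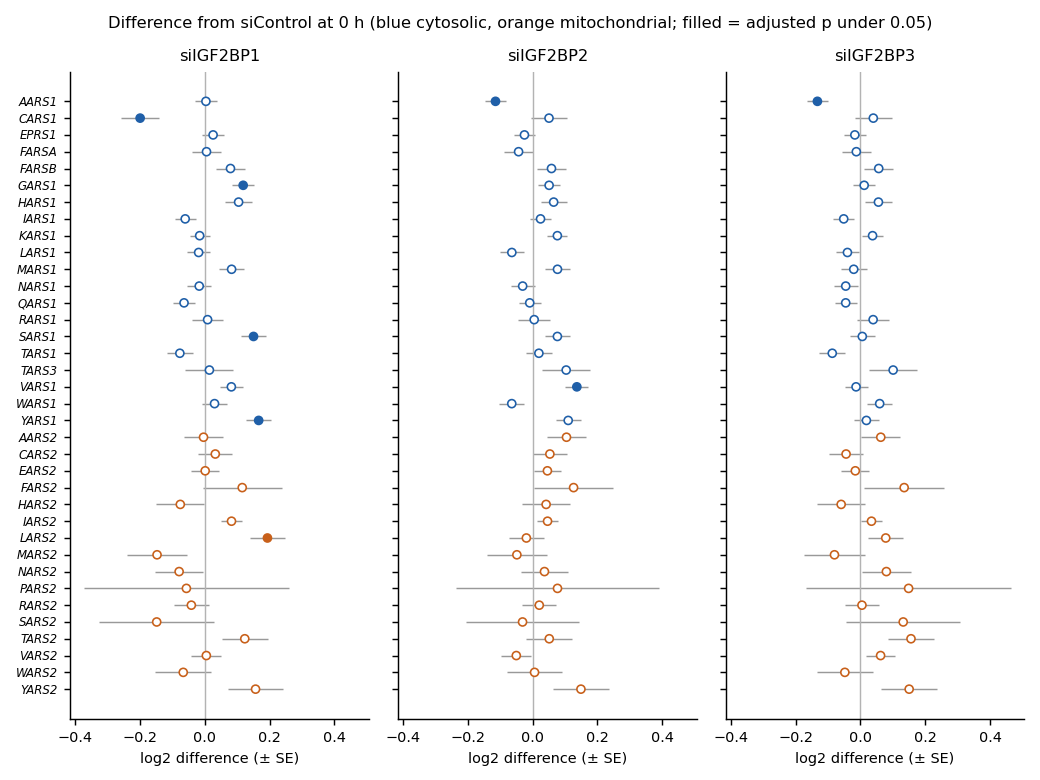
Log2 difference from siControl at 0 h (x axis, with SE) of synthetase mRNAs in siIGF2BP1, siIGF2BP2 and siIGF2BP3. Filled points passed an adjusted p of 0.05, among them CARS1 (-0.20) and LARS2 (0.19) in siIGF2BP1.

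CARS1 was below siControl in siIGF2BP1, with 37.0 and 34.3 CPM against 41.9 and 40.3 (-0.20, SE 0.0577, adjusted p = 0.0132). It also lay below siIGF2BP2 (-0.25, adjusted p = 0.00149) and siIGF2BP3 (-0.24, adjusted p = 0.00360). The groups did not overlap.

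Among the 4 that rose in siIGF2BP1, YARS1, the cytosolic tyrosyl enzyme, had 144 and 148 CPM against 127 and 133 (0.17, SE 0.0381, adjusted p = 0.00153). LARS2, the mitochondrial leucyl enzyme, had 63.0 and 63.8 against 55.5 and 55.3 (0.19, SE 0.0534, adjusted p = 0.00931). SARS1, the seryl enzyme, had 124 and 122 against 107 and 114 (0.15, SE 0.0386, adjusted p = 0.00483). GARS1 had 203 and 211 against 194 and 188 (0.12, SE 0.0343, adjusted p = 0.0133). In each of the 4 the siIGF2BP1 libraries lay above both controls. YARS1 shares 396 exon bases with S100PBP on the opposite strand, which was itself higher in siIGF2BP1 by 0.36 (adjusted p = 0.00328). The part of that overlap in the YARS1 value was not tested.

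AARS1, the alanyl-tRNA synthetase, was lower in siIGF2BP2 and in siIGF2BP3. It had 219.9 and 217 CPM in siControl, 219 and 219 in siIGF2BP1, 200.02 and 203 in siIGF2BP2, and 201 and 197 in siIGF2BP3. The difference from siControl was -0.11 in siIGF2BP2 (SE 0.0334, adjusted p = 0.0177) and -0.13 in siIGF2BP3 (SE 0.0335, adjusted p = 0.00707). Compared with siIGF2BP2 and siIGF2BP3, siIGF2BP1 was higher by 0.12 (adjusted p = 0.00995) and 0.14 (adjusted p = 0.00401). Those differences leave out the control libraries, which still enter the shared fit and its estimate of spread.

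In siIGF2BP2, VARS1 was higher, at 251 and 248 CPM against 225 and 229 (0.14, SE 0.0352, adjusted p = 0.00664). WARS1 did not differ from siControl by the test in any knockdown, but was lower in siIGF2BP2, at 76.9 and 77.7 CPM, than in siIGF2BP3, at 83.5 and 84.9 (-0.12, adjusted p = 0.0334), a comparison that called 9.19% of all genes.

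**Figure D5:**
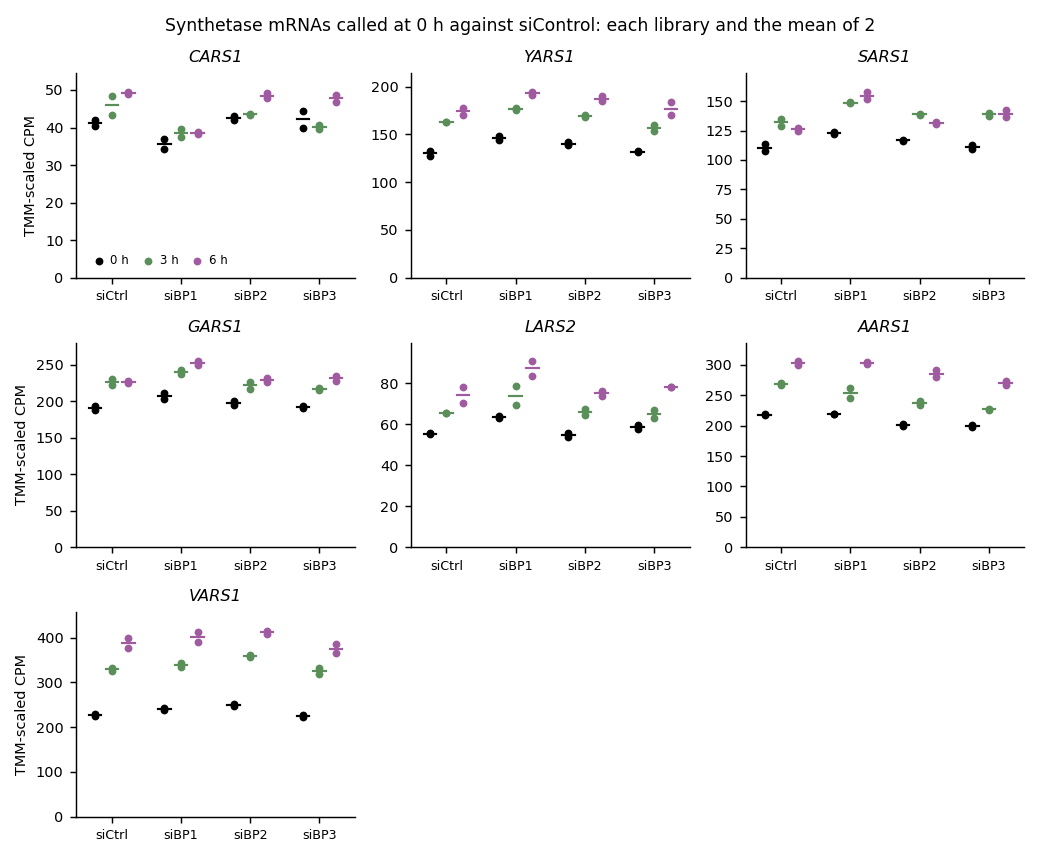
TMM-scaled CPM (y axis, from 0) of 7 synthetase mRNAs called at 0 h against siControl, in each library and as the mean of 2, at 0, 3 and 6 h. The x axis gives siControl (siCtrl) and knockdown of IGF2BP1, IGF2BP2 and IGF2BP3 (siBP1, siBP2, siBP3), and AARS1 is lower at each time in siIGF2BP2 and siIGF2BP3 than in siControl.

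The remaining genes followed for their biology did not pass the test at 0 h in any knockdown. EPRS1 differed from siControl by 0.03, -0.03 and -0.02 in siIGF2BP1, siIGF2BP2 and siIGF2BP3, with SEs of 0.0330 to 0.0331. KARS1 differed by -0.02, 0.08 and 0.04 (SE 0.0310 to 0.0311), HARS1 by 0.10, 0.06 and 0.06, HARS2 by -0.08, 0.04 and -0.06, and TARS1 by -0.08, 0.02 and -0.09. TARS2 and TARS3 were less precise, with SEs of 0.0703 to 0.0744 and differences of 0.01 to 0.16.

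These calls depended on the scaling, and most of them also on single libraries. With ERCC scaling 1, 0 and 0 members were called in the 3 knockdowns, where 4.94%, 5.57% and 3.59% of all genes were called, and none of the genes named above kept its call against siControl. Calls were also lost when single libraries at 0 h were left out, most of them without siControl replicate 1. In such fits 1 group holds a single library, and the share of all genes called is not given here.

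Averaged over the 3 time points, 15, 13 and 11 members were called, against 39.7%, 33.8% and 32.3% of all genes. The time points of a condition share a transfection but enter this test as separate libraries, so its p-values may be too small. The average also takes in libraries after actinomycin D, so it mixes level with loss. Among them, SARS1 and YARS2 were called higher in all 3 knockdowns, although at 0 h SARS1 was called only in siIGF2BP1 and YARS2 in none. SARS1 differed by 0.21 (adjusted p = 1.15e-09), 0.07 (adjusted p = 0.0138) and 0.07 (adjusted p = 0.0102) and YARS2 by 0.15, 0.16 and 0.20. The SARS1 calls in siIGF2BP2 and siIGF2BP3 were lost without siControl replicate 1 at 0 h or replicate 2 at 3 h, with differences no lower than 0.0562 and 0.0606. The YARS2 call in siIGF2BP1 was lost in 6 of 19 alternatives and in siIGF2BP2 in 4 of 19, with differences down to 0.0921 and 0.13, lowest without siIGF2BP1 replicate 2 at 6 h and siIGF2BP2 replicate 1 at 6 h. AARS1 stood at -0.13 and -0.18 in siIGF2BP2 and siIGF2BP3, and with ERCC scaling neither call remained. Of the calls, 10 of 15, 6 of 13 and 4 of 11 were higher (21.2%, 17.1% and 16.2% of all genes were higher and 18.5%, 16.7% and 16.0% lower), and with ERCC scaling 11 of 14, 22 of 22 and 31 of 31. That scaling called 31.1%, 48.0% and 54.8% of all genes and moved the all-gene medians to 0.06, 0.15 and 0.18, with 23.4%, 44.2% and 52.9% of all genes called higher.

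No synthetase mRNA passed the test for a different slope in a knockdown. Of all genes, 0.0152%, 0% and 0.0228% passed by edgeR in siIGF2BP1, siIGF2BP2 and siIGF2BP3. An unadjusted p below 0.05 was held by 3, 1 and 10 of 38 members, and by 1436, 896 and 2113 of 13136 genes. DESeq2 called no member either. In siIGF2BP3 the absence of calls did not hold in every edgeR fit that left out 1 library. The share of all genes called in those fits is not given here. Their siIGF2BP3 differences ranged from 0.284 to 0.447 for SARS1 and from 0.204 to 0.385 for MARS1. With all libraries, the members' median difference was 0.18, 0.15 and 0.20, close to the all-gene medians of 0.19, 0.17 and 0.22. SARS1 had the lowest p in siIGF2BP1 (0.34, SE 0.110, adjusted p = 0.423) and in siIGF2BP3 (0.36, SE 0.111, adjusted p = 0.277). RARS1 in siIGF2BP1 (0.33, SE 0.156, adjusted p = 0.457), MARS1 in siIGF2BP2 (0.24, SE 0.105, adjusted p = 0.643) and siIGF2BP3 (0.28, SE 0.106, adjusted p = 0.277), and LARS2 in siIGF2BP2 (0.24, SE 0.119, adjusted p = 0.643) came next.

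The number of members with a called fall over 6 h was 25, 26 and 23 in siIGF2BP1, siIGF2BP2 and siIGF2BP3, against 69.1%, 71.3% and 67.2% of all genes. PARS2, MARS2 and YARS2 had the 3 lowest slopes and QARS1 the highest in each of the 4 conditions. In the knockdowns the QARS1 slope was 0.14, 0.13 and 0.18, none with a call.

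Genes of neighbouring steps were read from lists of 3 scaffolds, 4 genes for glutaminyl-tRNA formation and formylation in mitochondria, 3 editing enzymes and 2 enzymes of the selenocysteine route. At 0 h, 1 scaffold and 2 genes of the mitochondrial list were higher in siIGF2BP1, 1 of the mitochondrial list in siIGF2BP2 and in siIGF2BP3, and no editing or selenocysteine gene was called. Of all genes, 9.43%, 6.65% and 4.93% were called higher in siIGF2BP1, siIGF2BP2 and siIGF2BP3. MTFMT, which formylates the methionyl-tRNA that MARS2 charges, had 12.4 and 12.8 CPM in siControl, 18.7 and 19.1 in siIGF2BP1, 17.3 and 16.8 in siIGF2BP2, and 17.3 and 16.6 in siIGF2BP3. It was higher by 0.58 (SE 0.0827, adjusted p = 1.35e-06), 0.44 (SE 0.0826, adjusted p = 0.000194) and 0.43 (SE 0.0836, adjusted p = 0.000470), and all 6 knockdown libraries lay above both controls, which the 3 comparisons share. AIMP1 (0.15, adjusted p = 0.0131) and GATB, a subunit of the mitochondrial amidotransferase (0.17, adjusted p = 0.0119), were higher in siIGF2BP1. Other scalings and left-out libraries were read for synthetase genes only. The calls of other genes, here and below, were therefore not checked against them.

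Of 20 genes of the amino acid response, which ATF4 controls together with many synthetases, 18 passed the filter, and ASNS and CHAC1 did not. At 0 h 7 were higher and 2 lower in siIGF2BP1 (9.43% and 6.5% of all genes), 3 and 1 in siIGF2BP2 (6.65% and 5.47%), and 1 and 0 in siIGF2BP3 (4.93% and 4.47%). PSAT1, of serine synthesis, had 244 and 246 CPM in siIGF2BP1 against 198 and 205 (0.28, SE 0.0352, adjusted p = 1.23e-07), and PHGDH, the first enzyme of that route, 203 and 212 against 169 and 174 (0.27, SE 0.0345, adjusted p = 1.71e-07). SLC7A5, a transporter of large neutral amino acids, was higher by 0.23 (adjusted p = 3.03e-06), and SLC7A1, the arginine transporter, was lower, at 87.7 and 88.7 CPM against 106 and 104 (-0.25, adjusted p = 2.32e-05). ATF4 itself differed by 0.04, 0.05 and 0.07 (adjusted p = 0.519, 0.348 and 0.185). Of the 8 synthetase genes with TGATGNAA in the promoter, CARS1 was lower and GARS1 higher in siIGF2BP1, and AARS1 was lower in both other knockdowns.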

How the data were processed

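RNA was measured in HepG2 cells by single-end 100 bp sequencing. Per the labels and the study's methods, the authors trimmed reads with Trimmomatic 0.39, aligned them to hg38 with HISAT2 2.1.0 and counted reads per GENCODE gene with HTSeq. The deposited values are raw read counts per gene, not normalized. Strand and multi-mapping settings of the counting are not given in the sources used here, so overlapping genes are uncertain. Reads from copies of synthetase genes were few (1210 for KARS1P2 over all libraries). Summary rows that name no gene held 13.6% to 17.1% of each library and were left out, as were 45 rows of the Y copy of the pseudoautosomal regions. Depth was 31843248 to 74252042 gene reads and 50889 to 119088 ERCC reads per library. Intervals and floors (3 reads for a count of 0) cover counting error only. No group held a duplicated library (chi-square between replicates over its degrees of freedom, 3.17 to 7.83). No column lacked a sample.

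Members and lists were chosen with earlier results of these data known. Level was tested with edgeR 4.0.16 (R 4.3.3; quasi-likelihood, 2-sided, 12 group means, TMM). Loss was tested in an 8-term model of intercept and slope per condition on the ERCC total, which was added in proportion to total RNA and cannot correct for RNA per cell. p-values were Benjamini-Hochberg adjusted over 13136 genes, threshold 0.05. SE is the effect divided by the square root of F. Half-lifetime is ln2/K, with K the mean of the 3 h and 6 h rates from replicate means. Named genes were the 3 highest and 3 lowest levels and the 3 fastest and slowest slopes per compartment, all calls at 0 h up to 5 per direction, differences between knockdowns, the 2 lowest p for slope differences, and a list fixed for its biology (WARS1, GARS1, KARS1, EPRS1 and the HARS and TARS genes). Genes named for overlap, exon number or 3′ region were chosen after their values were seen. Counts and medians cover all 38 members, but single-gene results of some members are not reported here or drawn in the figures. Scripts were tested on simulated data. Alternatives were DESeq2 1.42.0, other scalings, filters, fits on fewer libraries, 0 h against 6 h alone, replicate blocks and leaving out each library, and, added after the data were seen, the length of all annotated exons for levels. The replicate numbers did not pair the libraries throughout. Gene positions, exons and transcripts are from GENCODE 44 on GRCh38 and promoters from RefSeq.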

Additional observations from a re-analysis of the deposited data

Results flagged for a closer look

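Synthetase mRNAs that differed between 2 knockdowns at 0 h were singled out for a closer look. The difference leaves out the siControl libraries, although they enter the shared fit and its estimate of spread. Where 18.7% of all genes were called between siIGF2BP1 and siIGF2BP2, 5 of 38 members were called, among them CARS1 (-0.25) and KARS1 (-0.0923), lower in siIGF2BP1, and LARS2 (0.21) and AARS1 (0.12), higher in siIGF2BP1. Where 14.3% were called between siIGF2BP1 and siIGF2BP3, 6 of 38 members were called, among them CARS1 (-0.24), lower in siIGF2BP1, and YARS1 (0.15), SARS1 (0.14), AARS1 (0.14) and GARS1 (0.11), higher in siIGF2BP1. Where 9.19% were called between siIGF2BP2 and siIGF2BP3, the 2 of 38 members called were VARS1 (0.15), higher in siIGF2BP2, and WARS1 (-0.12), lower in siIGF2BP2. KARS1 had 274 and 279.6 CPM in siIGF2BP1 against 291 and 299 in siIGF2BP2, and TERF2IP, which shares 176 exon bases with it on the opposite strand, was lower than siControl in siIGF2BP2 by the test (-0.17, adjusted p = 0.0146, edgeR). CARS1 kept its call against siIGF2BP2 under all 11 alternatives, with adjusted p up to 0.0494.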

How the results depend on the processing

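The CARS1 difference between siIGF2BP1 and siIGF2BP2 at 0 h kept its call under each of 11 alternatives. With ERCC scaling, the numbers of synthetase mRNAs called at 0 h were 1, 0 and 0 in siIGF2BP1, siIGF2BP2 and siIGF2BP3 against siControl (649, 732 and 471 of all genes, against 2093, 1593 and 1234 with TMM). Between siIGF2BP1 and siIGF2BP2 the number was 2 (1585 of all genes, against 2455 with TMM). Between siIGF2BP1 and siIGF2BP3 it was 2 (875 against 1879), and between siIGF2BP2 and siIGF2BP3 it was 0 (382 against 1207). In the last comparison, fitting without a filter on low counts gave 1 member and 1179 of the genes then tested. Over the mean of 3 time points ERCC scaling gave 22 calls in siIGF2BP2 and 31 in siIGF2BP3 (6307 and 7203 of all genes), the AARS1 difference in siIGF2BP2 became 0.0123, and at 0 h GARS1 between siIGF2BP1 and siIGF2BP3 became -0.00677. The cause was not tested.

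Leaving out 1 library at a time gave 2 to 4, 0 to 1 and 0 to 1 calls at 0 h against siControl, 3 to 3 between siIGF2BP1 and siIGF2BP2, 3 to 5 between siIGF2BP1 and siIGF2BP3 and 0 to 1 between siIGF2BP2 and siIGF2BP3. Fewer samples remain in these fits, and a lone replicate is assumed to vary like the other groups. The share of all genes called in each of these fits is not given here. The ranges of counts therefore do not compare members with other genes. Over the mean of time points the ranges were 11 to 17, 10 to 14 and 7 to 10. For loss in siControl the range was 28 to 36 calls, with medians of -0.49 to -0.31 for cytosolic and -0.87 to -0.63 for mitochondrial mRNAs and half-lifetimes of 13.1 to 26.1 h and 6.94 to 8.28 h. Slope differences stayed at 0 in siIGF2BP1 and siIGF2BP2 and ranged from 0 to 3 in siIGF2BP3, with 3 reached without siControl replicate 2 at 0 h. The QARS1 slope ranged from -0.15 to 0.0701 and the VARS1 slope from -0.20 to 0.0309, both highest without siControl replicate 2 at 6 h.

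The scaling set the sign of slow slopes. Under TMM the median slope was 0.48 for cytosolic and 0.0644 for mitochondrial mRNAs, and the mitochondrial median half-lifetime was 15.8 h. Under library-size scaling the medians were 0.16 and -0.26. The slopes under TMM were 0.83 for QARS1, 0.77 for VARS1, 0.75 for WARS1, 0.73 for IARS2, 0.72 for KARS1, 0.66 for VARS2, 0.64 for CARS2, 0.56 for EPRS1, 0.48 for TARS3, 0.46 for HARS1, 0.25 for GARS1 and 0.0333 for TARS2. Under library-size scaling they were 0.51 for QARS1, 0.45 for VARS1, 0.43 for WARS1, 0.41 for IARS2, 0.40 for KARS1, 0.34 for VARS2, 0.33 for CARS2, 0.24 for EPRS1, 0.16 for TARS3 and 0.14 for HARS1. These scalings set the all-gene median near 0, or closer to it, by construction. A minimum of 5 CPM, which removed SARS2, moved the mitochondrial median to -0.67. With the length of all annotated exons the median levels were 21.3 and 5.68 RPKM.

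Replicate numbers did not pair the libraries throughout: deviations of same-numbered libraries correlated at -0.01 to 0.16 within a condition and -0.03 to 0.14 within a time point. The values over 0.1 within a condition were all 3 of siIGF2BP3 (0.126, 0.113 and 0.164). With the replicate number as a block, 6, 4 and 1 members were called at 0 h against siControl, 32 had a called fall in siControl, and slope differences stayed at 0, 0 and 0, and a block within each condition gave the same counts of falls and slope differences. Shares of all genes called in the block fits are not given here. Low depth limits PARS2 at 6 h, where libraries held 0 to 20 reads.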
